A study of Mus musculus with 8 samples.

Results

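The genes described here are the 7 members of a small set that loads peptides onto major histocompatibility complex (MHC) class II molecules and controls their expression: H2-Aa, H2-Ab1, H2-Eb1, H2-DMa, H2-DMb1, Cd74 and Ciita. They were chosen by name, and each matched 1 identifier among the 47643 Ensembl genes in the files. All 7 passed the filter on low counts, which left 13829 genes to test. No measured value was used to pick them in the files, although results of these libraries were known when the set was proposed.

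MHC class II molecules are pairs of an alpha and a beta chain that show peptides from endosomes to CD4+ T cells. In the mouse, H2-Aa and H2-Ab1 encode the alpha and beta chains of I-A, and H2-Eb1 encodes the beta chain of I-E, whose alpha chain comes from H2-Ea. Cd74, the invariant chain, holds the groove shut on the way to the endosome, and H2-DMa and H2-DMb1 encode the H2-DM pair that exchanges its remnant for peptide. Ciita is the coactivator that switches these genes on, by docking on a fixed set of promoter factors. Dendritic cells, macrophages and B cells use the pathway constitutively, and interferon gamma can induce it in other cells, kidney tubule epithelium among them.

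RNA was sequenced from whole kidneys of 8 mice, 4 labelled wild type (WT) and 4 labelled Six2-Cre;Cox10-fl/fl (cKO). Replicate 2 of each group was aged 2.5 months and the other libraries 3 months. Cox10 makes the heme A precursor that complex IV of the respiratory chain needs, and Six2-Cre acts in the progenitors of the nephron epithelium, so leukocytes and vessels are not expected to carry the deletion. The labels give 1 kidney sample per library and do not state littermates, sex or the Cre and floxed status of the WT animals beyond wild type. Replicates are separate samples by label, so p-values measure the spread between these samples.

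Library totals ranged from 9454830 to 15838026 counts, and no library was a copy of another. Counts of 4 Y-linked genes, summed, were 0 in WT 1, cKO 1, cKO 2 and cKO 4 and 829 to 1707 in the other libraries, so sex is not balanced between the groups. Cox10 itself, summed over the whole gene, was at 19.2 to 24.6 CPM (counts scaled to a common library total, with trimmed mean of M values factors) in WT and 10.9 to 22.3 CPM in cKO, with an edgeR adjusted p of 0.619. The labels do not name the floxed part, so this total does not check the genotype. The kidney identity of the libraries was plain, with 7 tubule markers summing to 8358 to 10960 CPM in WT and 3104 to 6746 CPM in cKO.

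Class II genes carry a shared promoter layout, an X box followed at a fixed spacing by a Y box, the platform on which Ciita docks. The stretches below are shown because they hold these elements in 3 of the 7 genes. They come from RefSeq promoters of build GRCm38.p6, the build of the files, and run 5′ to 3′ on the gene's strand. Of the 7 genes, 4 had an entry in that table (H2-Aa, H2-Eb1, H2-DMa and H2-DMb1). H2-Aa and H2-Eb1 are given for the 110 bases before the gene start, at chr17:34287824-34287933 on the minus strand and chr17:34305757-34305866 on the plus strand. H2-DMb1 is given for 30 bases at chr17:34153105-34153134 on the plus strand, since GENCODE places its transcript start further upstream. Capitals mark GNAAC, part of the X box, and GATTGG, the core of the Y box. In the H2-DMb1 stretch only GATTGG falls inside the bases shown.
H2-Aa: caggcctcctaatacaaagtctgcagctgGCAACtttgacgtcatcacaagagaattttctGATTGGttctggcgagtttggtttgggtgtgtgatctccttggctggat
H2-Eb1: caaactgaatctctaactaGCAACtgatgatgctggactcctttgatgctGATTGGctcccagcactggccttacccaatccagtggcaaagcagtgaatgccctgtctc
H2-DMb1: tgatgctaggctgattcactcagtGATTGG
From the first base of GNAAC to the first base of GATTGG the distance was 32 bases in H2-Aa, 31 in H2-Eb1 and 32 in H2-DMb1. GATTGG began 49, 60 and 62 bases before the RefSeq start of the gene. For H2-DMb1 that start lies downstream of the GENCODE start, 34153072, so its elements fall inside the gene span given below. The letters were written with these sequences in view. Searched on both strands of windows of 300 bases, GATTGG occurred in 16.1% of 32851 promoter entries and GNAAC in 84.8%. GNAAC followed by GATTGG at a distance of 25 to 35 bases occurred in 0.651%. For the genes named here the spaced pair was searched only on the gene's own strand, unlike the shares above. On that strand it was not found in either of the H2-DMa windows. Outside the set it was found on that strand in H2-Oa, H2-Ob and H2-Eb2 and not in H2-DMb2, whose window held GATTGG on at least 1 strand.

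Six2-Cre;Cox10-fl/fl kidneys held more transcript of the class II chains, the invariant chain and the H2-DM chains. Of the 7 genes 6 rose, by 3.15-fold to 6.19-fold in mean CPM, and for each of these 6 all cKO libraries lay above all WT libraries. Ciita did not pass. For comparison, 9.57% of all tested genes were called higher in cKO, 7.14% were called lower and 13.1% had all cKO libraries above all WT libraries. The median log2 fold change was 2.15 over the 7 genes and -0.01 over all tested genes. In whole tissue, more cells of a type and more RNA per cell cannot be told apart.

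**Figure D1:**
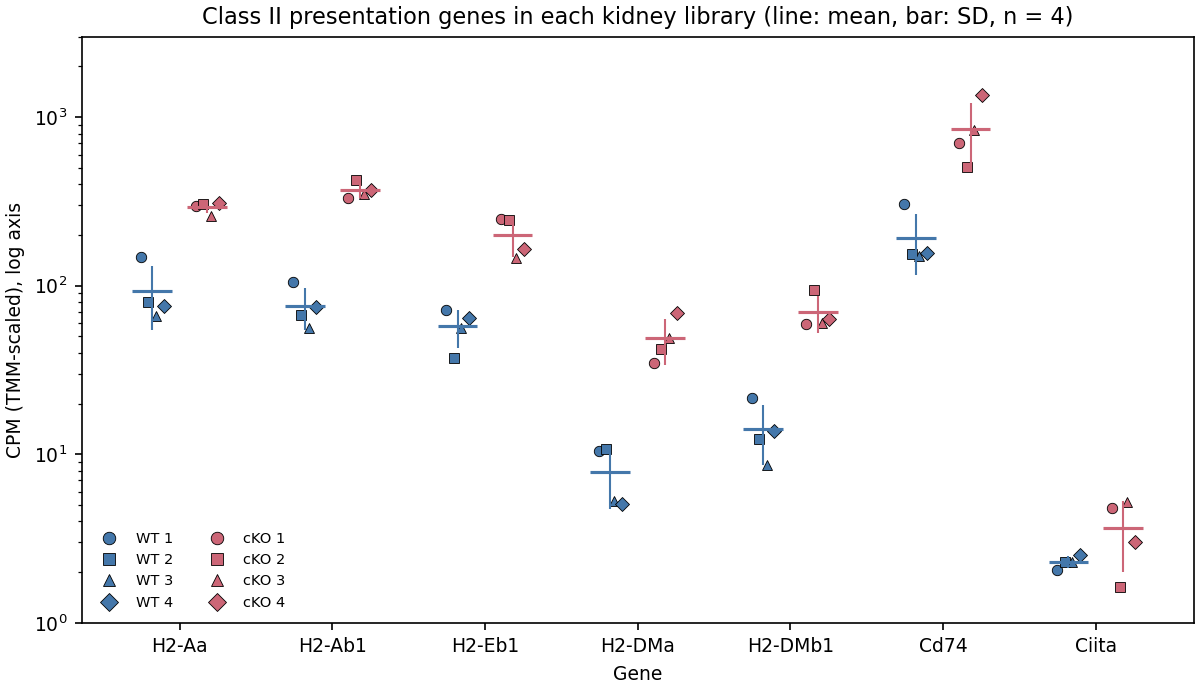
CPM of the 7 class II presentation genes on a log axis, with 1 point per library, a line at the group mean and a bar of 1 SD (n = 4 per group). WT and cKO points are apart for every gene but Ciita, whose cKO points range from 1.63 to 5.19 CPM around WT points of 2.07 to 2.52.

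H2-Ab1, the I-A beta chain (ENSMUSG00000073421, mm10 chromosome 17, 34257689 to 34269419), was at 105, 66.8, 56.2 and 74.9 CPM in WT 1 to WT 4 and at 333, 421, 348 and 372 CPM in cKO 1 to cKO 4. The cKO libraries were close to each other and the lowest of them was far above the highest WT library, WT 1. It rose by 2.28 on the log2 scale (SE 0.25, 95% interval 1.74 to 2.83, edgeR adjusted p = 0.000269).

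The I-A alpha chain gene H2-Aa (ENSMUSG00000036594, chromosome 17, 34282744 to 34287823) held 149, 80.1, 66.0 and 76.0 CPM in the 4 WT libraries and 296, 305, 259 and 308 CPM in the 4 cKO libraries. WT 1 stood above the other WT libraries and still below every cKO library. H2-Aa rose by 1.65 on the log2 scale (SE 0.28, 95% interval 1.05 to 2.26, edgeR adjusted p = 0.0028). The ratio of H2-Aa to H2-Ab1 counts within a library was 1.01 to 1.43 in WT and 0.725 to 0.888 in cKO, so the partner chains did not keep the same proportion. This ratio was looked at after the values were seen and was not tested.

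For H2-Eb1, the I-E beta chain (ENSMUSG00000060586, chromosome 17, 34305867 to 34316674), the WT libraries held 71.4, 37.3, 56.4 and 64.6 CPM and the cKO libraries 249, 244, 146 and 165 CPM. Within cKO the first pair of libraries was high and the other pair lower, a split not seen for H2-Aa or H2-Ab1. H2-Eb1 rose by 1.81 on the log2 scale (SE 0.27, edgeR adjusted p = 0.00147). Its partner H2-Ea, annotated as H2-Ea-ps, had 2, 0, 0 and 0 counts in WT and 0, 0, 5 and 1 in cKO. In these libraries the I-E beta chain was thus measured almost without counts of its alpha chain gene.

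Cd74 (ENSMUSG00000024610, chromosome 18, 60803848 to 60812652) was the most abundant of the 7 in both groups, at 305, 154, 151 and 156 CPM in WT and 698, 507, 837 and 1360 CPM in cKO. Its cKO libraries differed 2.69-fold between the lowest, cKO 2, and the highest, cKO 4, which is a wider spread than for the chains it escorts. The invariant chain gene rose by 2.15 on the log2 scale (SE 0.37, 95% interval 1.34 to 2.96, edgeR adjusted p = 0.00324). By mean CPM it ranked 892 among 13829 tested genes in WT and 143 in cKO.

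The peptide exchange chain H2-DMa (ENSMUSG00000037649, chromosome 17, 34119541 to 34139101) had the largest log2 fold change of the 7. It was at 10.4, 10.7, 5.31 and 5.04 CPM in WT and 34.6, 42.2, 48.8 and 69.1 CPM in cKO, on 65 to 121 and 388 to 1059 counts. No cKO library came near the WT range. H2-DMa rose by 2.64 on the log2 scale (SE 0.32, 95% interval 1.93 to 3.35, edgeR adjusted p = 0.000527).

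H2-DMb1, the beta chain of H2-DM (ENSMUSG00000079547, chromosome 17, 34153072 to 34160230), was at 21.6, 12.4, 8.65 and 13.8 CPM in WT and 59.4, 94.8, 60.0 and 63.3 CPM in cKO. Here cKO 2 was the high library and the other 3 were nearly equal. It rose by 2.30 on the log2 scale (SE 0.29, edgeR adjusted p = 0.000655). Alone among the 7, H2-DMb1 had expected counts that were not whole (by more than 0.01) in all 8 libraries, so part of its reads was shared out with another gene. Its neighbour and close copy H2-DMb2 went from 6.12, 4.02, 0.898 and 1.16 CPM in WT to 16.4, 37.0, 37.3 and 47.7 CPM in cKO, higher by 3.52 on the log2 scale (edgeR adjusted p = 0.00235). The division between the copies is uncertain. Their sum was 9.55 to 27.7 CPM in WT and 75.8 to 132 CPM in cKO, groups that do not overlap.

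Ciita, the coactivator (ENSMUSG00000022504, chromosome 16, 10480059 to 10528418), was the exception. It was at 2.07, 2.30, 2.29 and 2.52 CPM in WT and at 4.82, 1.63, 5.19 and 3.00 CPM in cKO, on 24, 20, 28 and 39 counts and 79, 15, 73 and 46 counts. WT libraries were nearly equal, while cKO 1 and cKO 3 were high and cKO 2 was below every WT library, so the groups overlapped. The log2 fold change of 0.68 had a 95% interval from -0.13 to 1.496 and an edgeR adjusted p of 0.221, which does not show that Ciita was equal in the groups. The interval's upper bound was below the fitted change of each of the other 6 genes. Its gene count sums over the alternative promoters of Ciita.

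**Figure D2:**
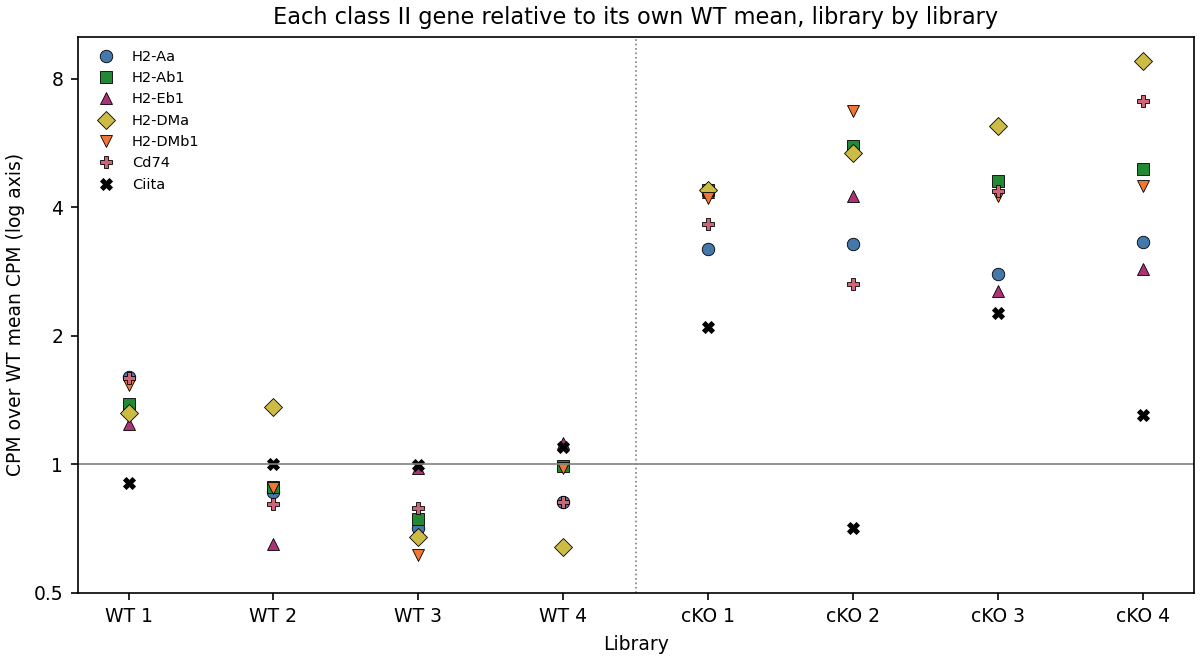
CPM of each gene divided by its own WT mean, on a log axis, for each of the 8 libraries. In cKO 2 Ciita lay at 0.712 of its WT mean while H2-Ab1 lay at 5.56 and H2-DMb1 at 6.72, and in cKO 4 H2-DMa reached 8.79 and Cd74 7.12.

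The 7 genes did not order the cKO libraries alike. H2-Aa and H2-Ab1 were the steadiest, with a coefficient of variation of 7.68% and 10.4% in cKO, against 43.0% for Cd74 and 45.3% for Ciita. Library cKO 2 held the highest H2-Ab1 and H2-DMb1 and the lowest Cd74 and Ciita, and cKO 4 the highest Cd74 and H2-DMa. In WT the spread was 41.1% for H2-Aa and 39.6% for Cd74, much of it from WT 1, and 8.04% for Ciita. WT 1 was the highest WT library for all of the 7 but H2-DMa, for which WT 2 was highest, and Ciita, for which it was lowest. WT 1 also had the highest sum of the 13 macrophage markers in WT, 255 CPM against 132 to 155 CPM in the others, and it is the WT library without Y-linked counts. The part of either in these values was not tested.

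Levels of different genes were compared as CPM per kilobase of the longest transcript in the consensus coding set. On that scale Cd74 stood at 136 ± 53.7 (SD, n = 4) in WT and 603 ± 260 in cKO. H2-Aa and H2-Ab1 followed at 82.4 ± 33.9 and 62.4 ± 17.2 in WT and at 259 ± 19.9 and 304 ± 31.7 in cKO, so the order of this pair of means was turned. In WT the libraries of the pair overlapped, at 58.5 to 133 and 46.3 to 86.4, and in cKO H2-Ab1 at 275 to 347 lay above H2-Aa at 230 to 273. H2-Eb1 came next at 34.4 ± 8.84 and 120 ± 31.9. The H2-DM chains were lower, H2-DMb1 at 10.04 ± 3.87 and 49.4 ± 12.1 and H2-DMa at 4.74 ± 1.88 and 29.4 ± 8.93. Ciita was the lowest, at 0.382 ± 0.0307 and 0.610 ± 0.276 CPM per kilobase.

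Whether the class II genes moved apart from each other was asked of ratios within a library. Over Cd74, the cKO minus WT difference of the log2 ratio was -0.40 for H2-Aa, 0.19 for H2-Ab1, -0.32 for H2-Eb1, 0.54 for H2-DMa and 0.22 for H2-DMb1. Single libraries turned the sign of 3 of these, to -0.10 for H2-Ab1 and -0.16 for H2-DMb1 without cKO 2 and to 0.02 for H2-Eb1 without cKO 4. For Ciita over Cd74 it was -1.59, with ratios of 0.00680 to 0.0162 in WT and 0.00221 to 0.00690 in cKO. The ratios of Ciita fell in the WT range only for cKO 1, which lay just above WT 1. In an exact two-sided permutation test, which with 4 against 4 can give no p below 0.0286, the p for Ciita was 0.0571 and its value adjusted over 13 ratios 0.31. The other 5 ratios had exact p-values of 0.114 to 0.743. None of these differences passed. After adjustment a ratio can pass only if most of the 13 reach the smallest possible p, so this does not show that the genes moved alike.

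Class II genes were next set against macrophage markers, which also rose. Each of the 7 genes was divided by the summed CPM of 13 macrophage markers, among them Cd68, Csf1r, C1qa and Lyz2. The make-up of that sum differed between the groups. Lyz2 had a mean of 41.6 CPM in WT and 318 CPM in cKO, and Csf1r 53.7 and 34.5 CPM. In cKO 2 Lyz2 alone was at 532 CPM of a sum of 842 CPM. The ratios are therefore not a level per macrophage. H2-Ab1 was at 0.399 to 0.570 of that sum in WT and 0.458 to 0.685 in cKO, and Cd74 at 0.993 to 1.19 and 0.602 to 2.31. The log2 differences were 0.32 for H2-Ab1, 0.14 for Cd74, -0.27 for H2-Aa, -0.18 for H2-Eb1, 0.36 for H2-DMb1 and 0.68 for H2-DMa. Ciita was at 0.00811 to 0.0192 of the sum in WT and 0.00194 to 0.00991 in cKO, a log2 difference of -1.45. The exact permutation p-values of the 7 ratios were 0.0571 to 0.743, and the lowest value adjusted over the 13 was 0.31. None passed, but after adjustment a ratio can pass only if most of the 13 reach the smallest possible p. The test could thus hardly set class II genes apart from the marker sum. Without cKO 4 the difference for Cd74 was -0.17, and without cKO 3 that for H2-Eb1 was 0.03. Over 7 pan leukocyte markers instead, the differences for H2-Aa and H2-Eb1 turned to 0.31 and 0.39. On that scale they were 0.90 for H2-Ab1, 1.25 for H2-DMa, 0.93 for H2-DMb1, 0.71 for Cd74 and -0.88 for Ciita. Cd74 was at 4.23 to 5.17 of the leukocyte sum in WT and 5.33 to 13.9 in cKO, which do not overlap (exact permutation p = 0.0286, the smallest possible, and 0.186 adjusted over the ratios).

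**Figure D3:**
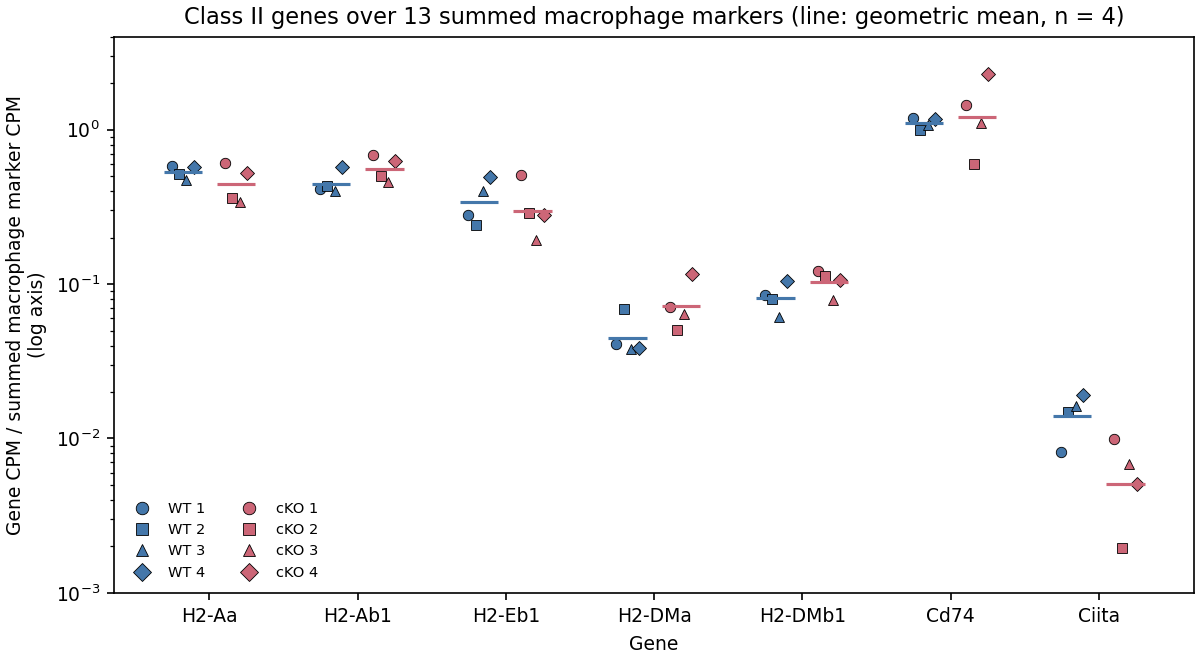
CPM of each gene over the summed CPM of 13 macrophage markers in the same library, on a log axis, with a line at the geometric mean of each group (n = 4). WT and cKO points overlap for each of the 7 genes, and for Ciita only cKO 1 lies within the WT range of 0.00811 to 0.0192.

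Markers of cells that normally bear class II were examined list by list. Of the 13 macrophage markers 11 rose (median log2 fold change 2.36), and their sum was 132 to 255 CPM in WT and 486 to 842 CPM in cKO. Of all tested genes 9.57% were called higher in cKO, a share to set beside each count of risen genes in this paragraph. Without WT 4 and cKO 4, Adgre1, Fcgr1, C1qb and Cx3cr1 lost their call (edgeR adjusted p = 0.0536 to 0.213). Within libraries without Y-linked counts, where WT 1 stands alone, log2 fold changes were 0.093 for Adgre1, 1.095 for C1qa and 2.825 for Itgam. Within libraries with them, where cKO 3 stands alone, they were 2.254, 3.13 and 2.721. The mannose receptor Mrc1 rose by 2.43, the integrin Itgam by 2.66, Cd68 by 2.73 and the lipopolysaccharide coreceptor Cd14 by 2.68 on the log2 scale, at edgeR adjusted p-values of 0.00136 to 0.00206. Itgam had 3 to 17 counts in WT and 52 to 87 in cKO, and Fcgr1 1 to 22 and 56 to 133. Both are among the 11 that rose, and both passed the count filter through cKO. The colony-stimulating factor receptor Csf1r, at 43.7 to 70.3 CPM in WT and 17.3 to 49.4 CPM in cKO, did not pass. It was chosen after its values were seen. Of 7 pan leukocyte markers 5 rose, among them the surface glycoprotein Cd52 by 1.63, the lysosomal Laptm5 by 1.75, the actin regulator Coro1a by 1.17 and the tetraspanin Cd53 by 1.49 on the log2 scale (edgeR adjusted p = 0.0138 to 0.0326), while Ptprc (CD45) was at 2.98 to 7.35 CPM in WT and 3.07 to 9.40 CPM in cKO and did not pass. Their sum was 29.7 to 62.8 CPM in WT and 73.5 to 157 CPM in cKO. The count of 5 was 2 without WT 3, WT 4, cKO 3 or cKO 4, and 3 without cKO 1. Without both WT 4 and cKO 4 all 5 lost their call (edgeR adjusted p = 0.0826 to 0.176). With a sex term only Laptm5 and Cd52 of the 5 kept it. Within libraries without Y-linked counts, log2 fold changes were 0.211 for Cd53 and 0.497 for Cd52. Within libraries with them they were 2.632 and 2.682.

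Dendritic cell markers summed to 11.8 to 16.2 CPM in WT and 16.6 to 22.6 CPM in cKO. Of the 6 tested of 10, only the integrin Itgax rose, by 1.70 on the log2 scale (edgeR adjusted p = 0.00621), and it is also found on macrophages. Zbtb46, used here as a marker of conventional dendritic cells, was at 4.13 to 6.64 CPM in WT and 3.48 to 5.05 CPM in cKO, and Flt3, Xcr1, Clec9a and Ccr7 were under the count filter. Whether its level in whole kidney comes from dendritic cells was not tested. B cell markers summed to 2.20 to 4.82 CPM in WT and 2.14 to 4.63 CPM in cKO. Of 8 only Cd79b could be tested, and Ms4a1 and Pax5 were below 1 CPM in every library. Of the 7 tested T cell markers 1 rose, the kinase Lck (2 did without WT 1). The T cell list summed to 6.01 to 13.2 CPM in WT and 9.20 to 21.0 CPM in cKO. Of all tested genes 9.57% were called higher in cKO and 7.14% lower. A single call in a list this short therefore sets neither dendritic cell nor T cell markers apart. The part of any of these cells in the class II values was not tested. Of 7 tubule markers 4 fell, among them the proximal tubule glucose transporter Slc5a2 and the endocytic receptor megalin (Lrp2), each at a log2 fold change of -1.29. That count was 0 to 2 without WT 3, WT 4, cKO 2, cKO 3 or cKO 4, and 0 with a sex term. Of 6 endothelial markers 2 fell, Kdr and Tek, at -1.13 and -0.93, and 1 did without WT 2, WT 3, cKO 2 or cKO 4.

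Other class II chains were scarce apart from H2-DMb2. H2-Oa and H2-Ob, which form the H2-DM inhibitor found mainly in B cells, were at 0.388 to 0.689 and 0.574 to 0.970 CPM in WT and at 0.762 to 1.14 and 0.522 to 1.34 CPM in cKO. H2-Oa was under the count filter, with 6 to 7 counts in WT and 7 to 16 in cKO, and H2-Ob did not pass (log2 fold change 0.23, edgeR adjusted p = 0.748). H2-Eb2 had 0 to 4 counts in any library. Thus H2-DMa and H2-DMb1 rose while H2-Ob, tested in the same libraries, did not pass, and the difference between them was not itself tested.

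Of 11 genes that supply peptides to class II or remove it from the surface, 4 rose and 0 fell (median log2 fold change 0.75). Over all tested genes 9.57% were called higher. Cathepsin S (Ctss), the protease that trims the invariant chain, was at 28.6, 12.3, 10.7 and 10.3 CPM in WT and 58.9, 79.0, 81.7 and 66.3 CPM in cKO. All cKO libraries were above WT 1, the highest WT library, and the log2 fold change of 2.21 (edgeR adjusted p = 0.00156) was close to that of Cd74. Cathepsin D (Ctsd) rose by 1.84. Legumain (Lgmn) and the thiol reductase Ifi30 rose by 0.91 and 0.84 (edgeR adjusted p = 0.0381 and 0.0287), calls that ended when any of 6 and any of 5 libraries was left out, with adjusted p up to 0.104 without WT 4 and 0.0893 without cKO 4. The count of 4 was 2 without WT 3, WT 4, cKO 3 or cKO 4. Cathepsin L (Ctsl), another endosomal protease, was at 376 to 737 CPM in WT and 675 to 1540 CPM in cKO and did not pass. The ubiquitin ligases March1 and March8, which send class II to degradation, had log2 fold changes of -0.54 and -0.65 and did not pass (edgeR adjusted p = 0.238 and 0.052).

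None of the Rfx and Nfy subunits, the constant parts of the class II promoter complex, passed the test. Of 16 promoter factors and their partners 3 rose and 1 fell, against 9.57% and 7.14% of all tested genes, and the median was -0.17. The X box subunits Rfx5, Rfxap and Rfxank had log2 fold changes of -0.36, 0.46 and -0.20, and the Y box subunits Nfya, Nfyb and Nfyc -0.52, 0.07 and -0.16. Rfx5 itself was at 3.71, 3.33, 8.65 and 5.82 CPM in WT and 5.68, 2.39, 5.19 and 3.46 CPM in cKO. Irf1, which acts on the interferon promoter of Ciita, rose from 15.2, 14.3, 9.47 and 8.92 CPM to 27.5, 26.1, 22.7 and 29.6 CPM, a log2 fold change of 1.15 (edgeR adjusted p = 0.0079). The myeloid factor Spi1 rose by 1.68 (adjusted p = 0.0205) and the lymphoid and myeloid factor Irf4 by 2.46 (adjusted p = 0.0242). Irf4 had 0 to 5 counts in WT and 9 to 22 in cKO, so it passed the count filter through cKO, and 2 factors rose with a filter of 1 CPM in 4 libraries. The acetyltransferase Kat2b fell by 1.02 (adjusted p = 0.0173). In the same edgeR test these last 3 lost their call without WT 4 (Spi1 0.0656, Irf4 0.0813), without cKO 4 (Kat2b 0.0624) or without other single libraries (4 in all for Spi1, 3 for Irf4 and 2 for Kat2b), and 1 factor rose without WT 4, cKO 3 or cKO 4. Without WT 1, 2 factors fell. Without WT 4 and cKO 4 Irf1 lost its call too (edgeR adjusted p = 0.104), and 0 factors rose. With a sex term Irf1 kept its call (0.0445), while Spi1 (0.052), Irf4 (0.0636) and Kat2b (0.151) lost theirs.

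In the interferon gamma pathway the receptor chains rose and the ligand was nearly without counts. Ifng had 2 counts in WT 1 and 0 in each of the other 7 libraries. Its receptor chains Ifngr1 and Ifngr2 rose by 1.33 and 1.18 on the log2 scale (edgeR adjusted p = 0.00509 and 0.00318). Both calls ended without WT 4 and cKO 4 (edgeR adjusted p = 0.0552 and 0.0613). The kinase Jak2 fell by 0.64 (adjusted p = 0.0245), a call that ended without any of 5 libraries (up to 0.0806 without cKO 3), and the feedback inhibitor Socs3, which other cytokines also induce, rose by 3.37 (adjusted p = 7.54e-05). In this list of 8, of which 6 were tested, 3 rose and 1 fell, against 9.57% and 7.14% of all tested genes. Without WT 4 and cKO 4, 1 rose and 0 fell.

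Of 15 other genes that interferon gamma induces, 14 were tested, 6 rose and 0 fell, with a median of 0.79. Over all tested genes 9.57% were called higher. The chemokine Cxcl10 rose by 2.01, the immunoproteasome subunit Psmb8 by 1.65, the GTPase Gbp2 by 0.97 and the class I peptide transporter Tap1 by 0.95, at edgeR adjusted p-values of 0.00368 to 0.0157. The call of Tap1 ended without cKO 3, at 0.0519, and that of Gbp2 with a sex term, at 0.053. Of the 6 genes that rose, 3 did with the sex term and 1, Psmb8, without WT 4 and cKO 4. Another of the 6, Cxcl11, had 1 to 10 counts in WT and 8 to 35 in cKO. It passed the count filter through cKO, and 5 genes rose with a filter of 1 CPM in 4 libraries. In cKO 2, where Ciita was lowest, Cxcl10 was at 3.37 CPM against 9.20 to 15.9 CPM in the other cKO libraries.

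Of 6 tested of 9 genes at the contact with T cells, only the receptor Cd40 rose (log2 fold change 1.23, edgeR adjusted p = 0.0386), a call lost without any of 5 libraries (up to 0.114 without WT 4), and 2 rose without WT 1. The costimulatory gene Cd86, at 0.804 to 3.54 CPM in WT and 2.22 to 6.85 CPM in cKO, did not pass, and Cd80 had at most 2 counts in a library. Lag3, a receptor that binds class II, was under the count filter at 0.245 to 0.518 CPM in WT and 0.427 to 2.83 CPM in cKO. Cd74 also serves at the cell surface as a receptor for the cytokine Mif, signalling through Cd44. Mif did not pass (log2 fold change 0.27), whereas Cd44 rose from 1.98, 1.84, 2.45 and 1.29 CPM to 17.2, 14.9, 13.5 and 17.9 CPM, a log2 fold change of 3.07 (edgeR adjusted p = 6.82e-05). It was 1 of 5 tested in its list of 6 to rise, and 2 did without WT 1 or WT 2. Both counts in this paragraph stand beside 9.57% of all tested genes called higher in cKO.

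**Figure D4:**
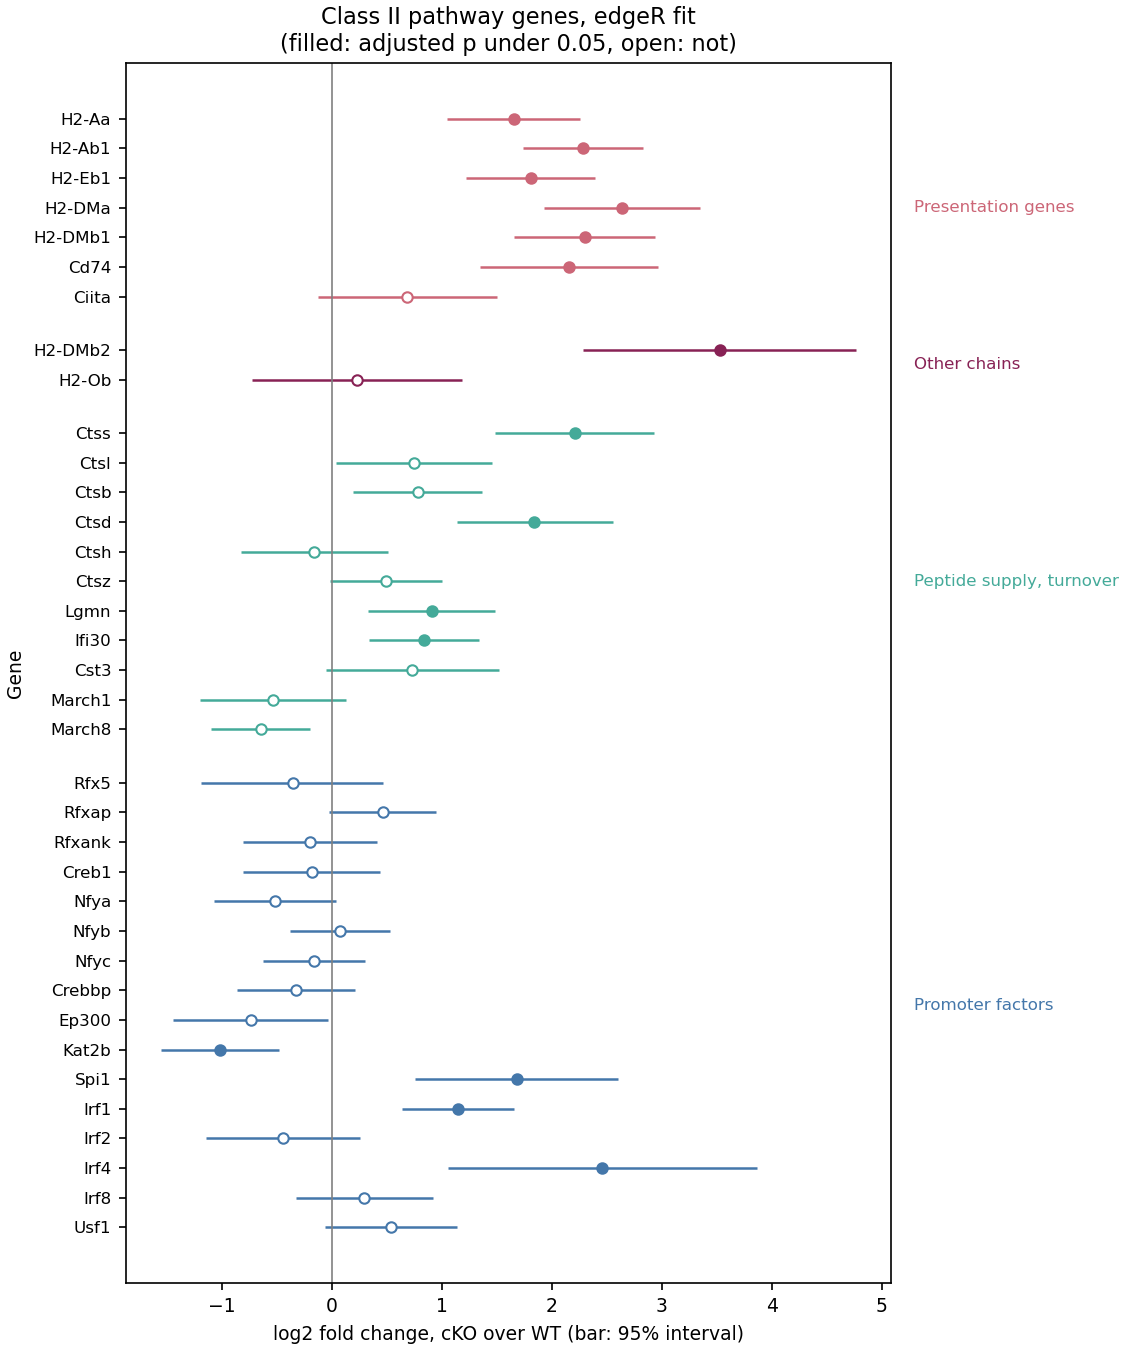
Log2 fold change of cKO over WT for the tested genes of 4 lists, with the 95% interval from the edgeR fit, filled where the adjusted p was under 0.05 and open elsewhere. The 6 filled presentation genes lie between 1.65 and 2.64, while the Rfx and Nfy subunits lie between -0.52 and 0.46 and are open.

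Sex was unbalanced between the groups, so the difference was also fitted with a sex term. The 6 genes that rose kept their call, at log2 fold changes of 1.42 for H2-Aa, 2.12 for H2-Ab1, 1.54 for H2-Eb1, 2.52 for H2-DMa, 2.06 for H2-DMb1 and 1.97 for Cd74, with edgeR adjusted p-values up to 0.00843. In that fit 5.17% of all tested genes were called higher in cKO. Within libraries with Y-linked counts, 3 WT against cKO 3 alone, the 6 changes were 1.46 to 2.81, and H2-Eb1 did not pass (adjusted p = 0.0744). Within libraries without them, WT 1 alone against 3 cKO, they were 1.02 to 2.22 and none of the 6 passed, at adjusted p-values of 0.0974 to 0.343. In both contrasts 1 arm is a single library, assumed to vary like the other groups, so little could pass. The difference between these contrasts was not past the threshold for any of the 7 genes (adjusted p = 1 in each case, unadjusted p from 0.142 to 0.798).

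The genes whose profile over the 8 libraries was most like the mean profile of H2-Aa, H2-Ab1, H2-Eb1 and Cd74 were found by the root mean square distance of centred log2 CPM, among 13457 genes of at least 1 CPM on average. The nearest were the ribonucleotide reductase subunit Rrm2 (0.155) and the mitotic kinase Aurka (0.175). Ephb6 (0.188), Pamr1 (0.191), Bex1 (0.197), the endoplasmic reticulum calcium binder Rcn1 (0.205), the NF-kB inhibitor Nfkbie (0.205), Emp3 (0.206), Glipr2 (0.210) and the zinc finger factor Egr2 (0.214) followed. The reference genes themselves lay at 0.178 for H2-Aa, 0.207 for H2-Ab1, 0.322 for H2-Eb1 and 0.347 for Cd74, and Ciita lay at 0.919. None of these 10 genes is a macrophage marker of the list or a class II gene. With only 13 such markers among 13457 genes, this says nothing about the cells involved, which was not tested.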

How the data were processed

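Kidney RNA of 8 mice was sequenced from TruSeq Stranded mRNA libraries, per the labels' protocols. STAR, RSEM and build mm10 are named in the submitters' processing notes. Versions, annotation release and strand handling are not given in those notes or labels. The authors deposited RSEM expected counts per Ensembl gene, unscaled, in 1 table per library. Symbols and positions come from GENCODE annotation of the same build, which matched 47224 of 47643 identifiers.

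Expected counts were rounded, filtered with filterByExpr and scaled by TMM factors. The groups were tested with robust quasi-likelihood fits in edgeR 4.0.16 (two-sided), with Benjamini-Hochberg adjustment over 13829 genes and a threshold of 0.05. SE and 95% intervals follow from the F statistic. Profiles used log2 CPM with a pseudocount of 0.5.

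All 7 genes are named. Of other lists, up to 4 called genes of smallest adjusted p are named, or the 2 most abundant tested where none was called, besides H2-Ea, Ifng, Lag3, Rfx5, Irf1 and genes under the count filter. Further genes (among them Csf1r, Ptprc, March8, Cd86, Mif and the Rfx and Nfy subunits) were named after their values were seen. A few genes of the lists are not reported here by name. The genes and lists were chosen with earlier results of these data known. The fits were tested on simulated counts. Alternatives covered scaling, count filters, DESeq2 1.42.0, limma-voom (limma 3.58.1), age, sex, a replicate block and left-out libraries.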

Additional observations from a re-analysis of the deposited data

Results flagged for a closer look

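Of 40 groups of 4 values examined, 6 held a library that stood apart from the other 3 by Dixon's criterion, the gap to the nearest value over the whole range. For independent, normally distributed values chance gives this in about 1 of 20 groups. The groups here share values, since the ratios reuse Cd74 and the macrophage sum, and CPM need not be normal. The 6 of 40 can therefore not be set against that rate. WT 1 was the high library for H2-Aa (149 CPM, gap over range 0.83) and for Cd74 (305 CPM, 0.966), and the low one for the ratio of Ciita to Cd74 (0.908). WT 2 was the high library for the ratio of H2-DMa to Cd74 (0.888) and to the macrophage markers (0.867). Library cKO 2 was high for H2-DMb1 (94.8 CPM, 0.891). Without WT 1 the log2 fold change was 1.98 for H2-Aa and 2.47 for Cd74.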

How the results depend on the processing

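Over 22 alternatives each, the 7 genes kept their direction, and 146 of 154 values stayed on the same side of the threshold. Within libraries without Y-linked counts, where WT 1 stands alone, the calls ended at log2 fold changes of 1.02 for H2-Aa, 1.84 for H2-Ab1, 1.62 for H2-Eb1, 2.22 for H2-DMa, 1.75 for H2-DMb1 and 1.49 for Cd74. H2-Eb1 also lost its call within libraries with them (1.46), and H2-Aa without WT 4 and cKO 4 (1.51, edgeR adjusted p = 0.0521). With 1 library left out, the log2 fold change was 1.51 to 1.98 for H2-Aa, 2.16 to 2.48 for H2-Ab1, 1.64 to 1.93 for H2-Eb1, 2.42 to 2.81 for H2-DMa, 2.11 to 2.57 for H2-DMb1, 1.83 to 2.47 for Cd74 and 0.47 to 0.92 for Ciita.

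Of all genes 1323 were called higher and 987 lower. With a sex term these were 715 and 226, within libraries with Y-linked counts 413 and 67, within those without 62 and 58, and without WT 4 and cKO 4 417 and 151. Without the 2.5-month pair 426 were lower. Scaling by library size alone gave 1866 and 550, and moved the median of all genes by 0.159. With 1 library left out they were 815 (without cKO 4) to 1626 (without WT 1) and 340 to 1467 (the same libraries). The cause was not tested.

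Of 45 called genes in the other lists, 32 lost their call without WT 4 and cKO 4, 20 without some single library, 19 with the sex term, 11 without the 2.5-month pair and 1 with the replicate block.

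Among the log2 ratio differences, Ciita to Cd74 was -0.89 within libraries without Y-linked counts. Within those with them, ratios to macrophage markers were -0.61 for H2-Aa, -0.92 for H2-Eb1, -0.011 for H2-Ab1 and -0.021 for H2-DMb1, the last pair turned in sign. Over pan leukocyte markers H2-Aa and H2-Eb1 turned to 0.31 and 0.39, and the differences for H2-Ab1, H2-DMa, H2-DMb1 and Cd74 were 0.90, 1.25, 0.93 and 0.71. The cause was not tested.

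Same-numbered libraries deviated with correlations of -0.10, 0.32, 0.12 and 0.01, not all above 0.1, so the numbers were not taken to pair the animals, although number 2 marks the shared age of 2.5 months. With the replicate block the log2 fold changes were 1.73 for H2-Aa, 2.32 for H2-Ab1, 1.80 for H2-Eb1, 2.66 for H2-DMa, 2.34 for H2-DMb1, 2.13 for Cd74 and 0.58 for Ciita, with 1315 genes higher and 893 lower, and no call among the 7 changed. Ciita rests on 15 to 79 counts a library.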
